A study of Mus musculus with 2 samples.

Results

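The genes described here are 10 transcription factors of the uterine epithelium: Sox17, Foxa2, Msx1, Msx2, Klf5, Dlx5, Dlx6, Pax8, Emx2 and Grhl2. They are 10 of the 32285 genes listed for each library, and all 10 were found by symbol in both. The genes were chosen from a list of epithelial regulators with earlier results of these data in view, so their presence in epithelial cells is a description and was not tested. The cells came from whole uteri of female mice aged 6 months. Control mice carried floxed Prickle1 alleles (Prickle1 f/f). The conditional knockout (cKO) mice carried the same floxed alleles and a Cre recombinase driven by Ltf, the lactoferrin gene, which is transcribed in uterine epithelium. Both samples are labelled as C57BL/6J, and the same label calls both wild-type, unlike their titles, which were followed here. The uteri of 3 control mice were pooled into 1 library and those of 3 cKO mice into another. With 1 library per group there was no replicate check: no p-value was computed, and an effect of genotype cannot be told apart from differences between pools or between preparations. All intervals below are 95% intervals that cover counting error only.

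These factors act at several steps in the making and upkeep of the uterine epithelium. Pax8 (a paired box factor) and Emx2 (a homeobox factor) are known from the embryonic Mullerian duct, from which the uterus forms. The homeobox genes Msx1, Msx2, Dlx5 and Dlx6 and the SRY-box gene Sox17 are known for roles in gland formation and in the preparation of the epithelium for an embryo. Foxa2 (forkhead box) marks the glands, Klf5 (a zinc finger factor) is needed in the lumenal lining, and Grhl2 (grainyhead-like) switches on genes of epithelial junctions such as Cdh1 and Cldn4.

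All 10 genes are protein-coding in GENCODE M21 on GRCm38. Their positions are Sox17 chr1:4490931-4497354 (minus strand), Foxa2 chr2:148042877-148046969 (minus), Pax8 chr2:24420560-24475599 (minus), Msx1 chr5:37820485-37824583 (minus) and Msx2 chr13:53466884-53473074 (minus). Klf5 lies at chr14:99298691-99315036 (plus), Grhl2 at chr15:37233036-37363569 (plus) and Emx2 at chr19:59458372-59465357 (plus). Dlx5 (chr6:6877805-6882085, minus) and Dlx6 (chr6:6863334-6868568, plus) are neighbours, 9236 bases apart. The whole of Dlx6, 5235 bases, lies within the antisense gene Dlx6os1, and Emx2 overlaps Emx2os by 264 bases. Whether counting used the strand is not given in the sources used here, so whether reads of Dlx6 and Dlx6os1 were kept apart was not checked. The Emx2 overlap lies at the 5′ ends of both genes, while the libraries read 3′ ends.

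Pax8 and Msx1 differed plainly in where they were counted: Pax8 had 0 UMIs in the muscle and mesothelial cells of both libraries, and Msx1 was found in both classes. Their promoters are therefore shown. Each line gives the 250 bases before the RefSeq start site (GRCm38.p6, chr2:24475600-24475849 for Pax8 and chr5:37824586-37824835 for Msx1, both minus strand), written 5′ to 3′, with matches to the CCAAT box in capitals.
Pax8: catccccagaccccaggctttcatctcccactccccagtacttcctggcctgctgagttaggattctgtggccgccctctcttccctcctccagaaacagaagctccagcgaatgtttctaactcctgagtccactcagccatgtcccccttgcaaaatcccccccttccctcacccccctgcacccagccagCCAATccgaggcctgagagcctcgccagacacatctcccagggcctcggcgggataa
Msx1: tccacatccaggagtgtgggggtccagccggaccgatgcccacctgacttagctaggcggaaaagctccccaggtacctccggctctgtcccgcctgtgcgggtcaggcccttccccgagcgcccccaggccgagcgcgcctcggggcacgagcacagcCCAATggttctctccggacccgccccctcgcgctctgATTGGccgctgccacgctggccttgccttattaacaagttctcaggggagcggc
Pax8 held 1 match to CCAAT (or its reverse complement ATTGG), starting 57 bases before the start site, and Msx1 held 2, the first starting 91 bases before it. Over 32851 RefSeq promoters of the same length, 33.8% held a match. Neither promoter held the homeobox core TAATTA on either strand, which 4.84% of promoters held. Nor did either hold the SOX core ACAAT (in 27.7% of promoters), the TATA box TATAAA (in 12.4%) or GGGNGGGG, 1 form of the Klf and Sp box (in 30.8%). Other forms of that box were not searched. Among the other members, single promoters were matched for Msx2 and Emx2. Their GENCODE start lies upstream of the RefSeq one, by 294 and 318 bases, so they are not printed. They held 1 CCAAT match each, and Msx2 also held 1 TAATTA and 2 GGGNGGGG matches.

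A unique molecular identifier (UMI) marks 1 captured transcript. Cells were barcodes that had 500 or more genes and no more than 20% of UMIs from mitochondrial genes. Control gave 3653 such cells and cKO 4950, with a median of 4650 and 5944 UMIs, from libraries of 45035801 and 57145553 UMIs in all. Cells of both libraries shared 5 barcodes, none of them in the epithelial gate. Prickle1 itself was too sparse to check the labels: the Epcam-positive gate held 16 of its UMIs in control (0.879 CPM, UMIs of the gene per 1000000 UMIs of the class) and 19 in cKO (4.28 CPM), and the epithelial-marked cells defined below held 12 and 2. The labels do not say which part of the gene was removed.

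Epithelial cells were taken as those with at least 1 UMI of Epcam, an epithelial adhesion gene, and none of the leukocyte gene Ptprc (the Epcam gate). The gate held 998 control cells (median 6459.5 UMIs, 18210591 UMIs in all) and 130 cKO cells (median 17410.5, 4437046 in all). In cKO the gate was a mixture. Cdh1, the epithelial cadherin, was found in 761 of 998 control cells but in 49 of 130 cKO cells. Upk3b, a mesothelial gene, was found in 32 control and 46 cKO cells, and Col1a2, a collagen gene of stroma, in 69 of each. Cells were therefore split by their markers, a rule chosen after these values were seen. Epithelial-marked cells had more UMIs of Cdh1, Cldn4 and Cldn7 than of the mesothelial genes Upk3b, Msln and Lrrn4 and than of the stromal genes Pdgfra and Col1a2. They made up 935 control cells (93.7% of the gate) and 52 cKO cells (40% of the gate). Mesothelial-marked cells numbered 19 (1.90%) in control and 44 (33.8%) in cKO, and stromal-marked cells 30 (3.01%) and 28 (21.5%). The remaining 14 control and 6 cKO cells were unmarked, and in the 6 cKO cells the endothelial markers summed to 4715 CPM (Prox1 2643 CPM). Of all UMIs of these 6 cells, 1 cell held 74.1%. The epithelial marker list, 8 genes, summed to 12177 CPM in the control gate and 7022 CPM in the cKO gate, but to 12726 and 12098 CPM in the epithelial-marked cells. All 6 mesothelial markers were found in both gates, with summed levels of 34.8 CPM in control and 568 CPM in cKO. In the epithelial-marked cells that sum was 3.35 CPM (6 of 6 markers found) and 3.46 CPM (4 of 6). The muscle marker sum was 50.2 CPM in control and 561 CPM in cKO epithelial-marked cells, of which the actin gene Acta2 made up 12.1 and 522 CPM. The other 6 muscle markers summed to 38.1 and 38.5 CPM. The part of the cells with Acta2 in the results was not tested. The level of each factor is compared between the libraries for the gate and for the epithelial-marked cells.

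**Figure D1:**
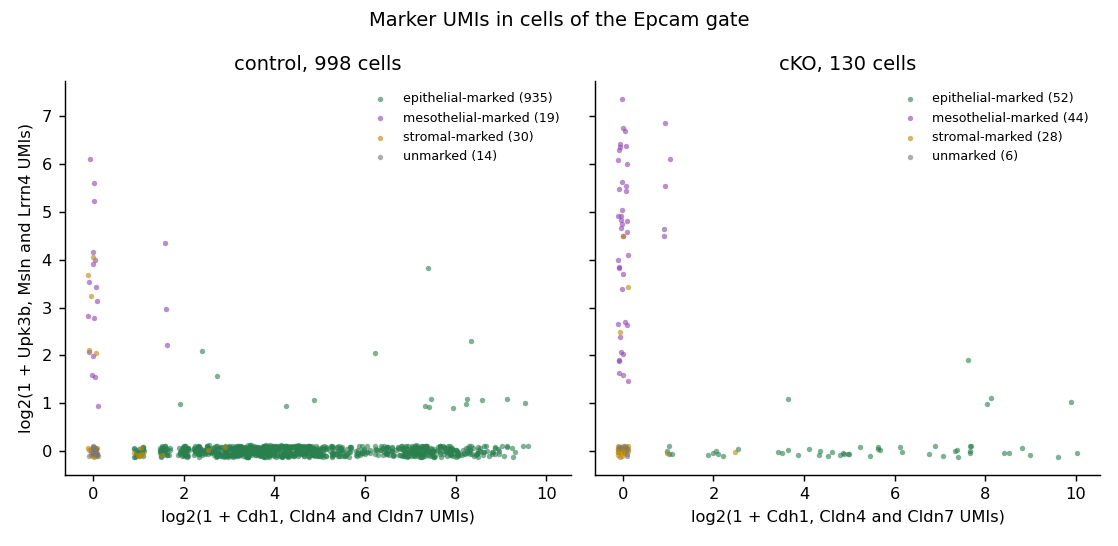
Each point is 1 cell of the Epcam gate, placed by its summed UMIs of 3 epithelial genes (x axis) and of 3 mesothelial genes (y axis), both as log2(1 + UMIs) with a small random offset, for control (left) and cKO (right). The 935 epithelial-marked control cells lie along the x axis, while the 130 cKO cells include 52 epithelial-marked cells along the x axis and 44 mesothelial-marked cells along the y axis, besides 28 stromal-marked and 6 unmarked cells.

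Among the gated classes, 5 of the 10 factors were counted almost only in Epcam-positive cells, 4 were shared with other uterine cells, and Foxa2 was too sparse to place. Besides the Epcam gate, stromal cells (Pdgfra-positive, 630 control and 1483 cKO), smooth muscle cells (Actg2 at or above 0.1% of UMIs, 213 and 308), mesothelial cells (Msln-positive, 25 and 34) and leukocytes (Ptprc-positive, 684 and 1578) were gated without Epcam. The remaining 1103 control and 1417 cKO cells met no gate (ungated), among them the cells with both Epcam and Ptprc UMIs. In control, 9 of the 10 factors were at least 2-fold higher in the Epcam gate than in stromal cells, where 25% of 15086 genes were. In cKO it was again 9 of 10, where 25.6% of 15289 genes were. The factors had been chosen for this pattern, so nothing is read from these counts. Emx2 was the exception in both libraries. In the leukocytes, which should lack these factors, levels lay between 0 and 4.76 CPM in both libraries.

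Sox17, Pax8, Dlx5, Dlx6 and Grhl2 made up the first set. Sox17 was counted at 70.8 CPM (67.0 to 74.8) in the control gate and 0.477 CPM (4 UMIs) in control stroma, a ratio of 148 (57.8 to 545), and at 94.2 CPM (85.4 to 104) and 0.192 CPM (5 UMIs) in cKO. Pax8 had 101 CPM in the control gate and 0.358 CPM (3 UMIs) in stroma, and in cKO 70.3 CPM against 0 UMIs, at least 610.5-fold higher with a floor of 3 counts over the class. Dlx5 had 87.8 CPM in the control gate against 0.477 CPM in stroma, and 27.7 against 0.0768 CPM in cKO. Its neighbour Dlx6 had 17.4 CPM and 0 UMIs in control, at least 48.5-fold higher, and 11.04 CPM and 3 UMIs in cKO. Grhl2 had 19.99 CPM and 0 UMIs in control, at least 55.8-fold higher, and 9.24 CPM and 1 UMI in cKO. In mesothelial and muscle cells of both libraries these 5 genes had 0 UMIs, except for 1 UMI of Dlx5 in control muscle. Those classes were small or shallow: 3 counts correspond to 8.13 CPM in control muscle and 13.3 CPM in control mesothelial cells, so lower levels were not detectable there. With that floor, Dlx6 in the gate was at least 1.31-fold its mesothelial level in control and 1.04-fold in cKO. For Grhl2 these bounds were 1.51 and 0.871, so the 0 counts of Dlx6 and Grhl2 in mesothelial cells show little. Ungated cells also held these transcripts. Of all Sox17 UMIs in cells, the gate held 87.4% in control and 67.1% in cKO, and ungated cells 12.1% and 31.6%. In cKO ungated cells held 25.7% of the Pax8 UMIs, 28.2% of Dlx5, 20% of Dlx6 and 21.9% of Grhl2, and leukocytes held 12.5% of the 64 Grhl2 UMIs. In cKO much of this lay in 8 ungated cKO cells with more Epcam than Ptprc UMIs, which held 182 of the 197 ungated Sox17 UMIs, 100 of 108 for Pax8, 44 of 49 for Dlx5 and 12 of 13 for Dlx6. Of Grhl2 these 8 cells held 9 UMIs, where all ungated cKO cells held 21.9% of 64. A single cell held 174 of those 182 Sox17 UMIs, and 1 cell held 61 of the 100 for Pax8. In control the 18 such cells held fewer of the ungated UMIs, 58 of 178 for Sox17, 33 of 157 for Pax8, 51 of 197 for Dlx5, 3 of 18 for Dlx6 and 6 of 42 for Grhl2. Foxa2 had 27 UMIs in control cells, 23 of them in the gate, and 19 in cKO cells, of which 10 lay in the gate and 3 each in stromal cells, leukocytes and ungated cells.

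The same 5 genes separated the 2 kinds of Epcam-positive cells. In mesothelial-marked cells Sox17, Pax8, Dlx5 and Dlx6 had 0 UMIs in both libraries, and Grhl2 had 0 in control and 2 in cKO. In cKO, where both kinds of cell were deep, Sox17 was at least 95.1-fold higher in epithelial-marked than in mesothelial-marked cells, Pax8 at least 70.9-fold, Dlx5 at least 28.0-fold and Dlx6 at least 11.2-fold. Among cells with at least 10000 UMIs, 346 of 358 control epithelial-marked cells (96.6%) and 38 of 38 cKO ones held a UMI of at least 1 of the 5 genes. Of the mesothelial-marked cells with at least 10000 UMIs, 0 of 12 in control and 2 of 34 in cKO did, and of the stromal cells 1.63% and 0.554%. None of the 5 genes was used to mark the cells. They were, however, grouped by their counts in cell classes of these same libraries, so this is a description and was not tested.

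Klf5, Emx2, Msx1 and Msx2 made up the shared set. Klf5 was counted at 608 CPM (597 to 619) in the control gate, at 239 CPM (180 to 312) in mesothelial and 179 CPM (140 to 225) in mesothelial-marked cells, and at 15.5 CPM in stroma. In cKO the mesothelial and mesothelial-marked levels were 230 and 192 CPM. Emx2 ran the other way: it had 51.5 CPM in the control gate, 152 CPM in stroma, 149 CPM in muscle and 115 CPM in mesothelial cells. The stromal level was 2.95-fold (2.71 to 3.21) that of the gate in control and 2.38-fold (2.09 to 2.72) in cKO, and the muscle level 2.89-fold and 2.90-fold. In cKO mesothelial cells Emx2 was at 35.4 CPM (10 UMIs) against 56.1 CPM in the gate, and the interval of gate to mesothelial, 0.849 to 3.35, held 1. Within the cKO gate Emx2 was at 73.5 CPM (116 UMIs) in mesothelial-marked and 35.5 CPM in epithelial-marked cells, 2.07-fold (1.55 to 2.78) higher in the former. Of all Emx2 UMIs in cells, 33.8% in control and 5.20% in cKO came from the Epcam gate. Msx1 had 81.7 CPM in the control gate, 10.4 CPM in stroma, 13.5 CPM (5 UMIs) in muscle and 17.7 CPM (4 UMIs) in mesothelial cells. In cKO its stromal level was 11.9 CPM and its muscle level 32.5 CPM (19 UMIs). Msx2 had 0 UMIs in muscle, and 2 in control and 5 in cKO stroma. In mesothelial-marked cells it was counted at 22.1 CPM (9 UMIs) in control and 20.9 CPM (33 UMIs) in cKO, against 24.5 and 10.8 CPM in epithelial-marked cells. The control intervals overlapped (10.1 to 42.0 against 22.2 to 27.0), and in cKO the mesothelial-marked level was 1.93-fold (1.11 to 3.39) the epithelial-marked one.

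**Figure D2:**
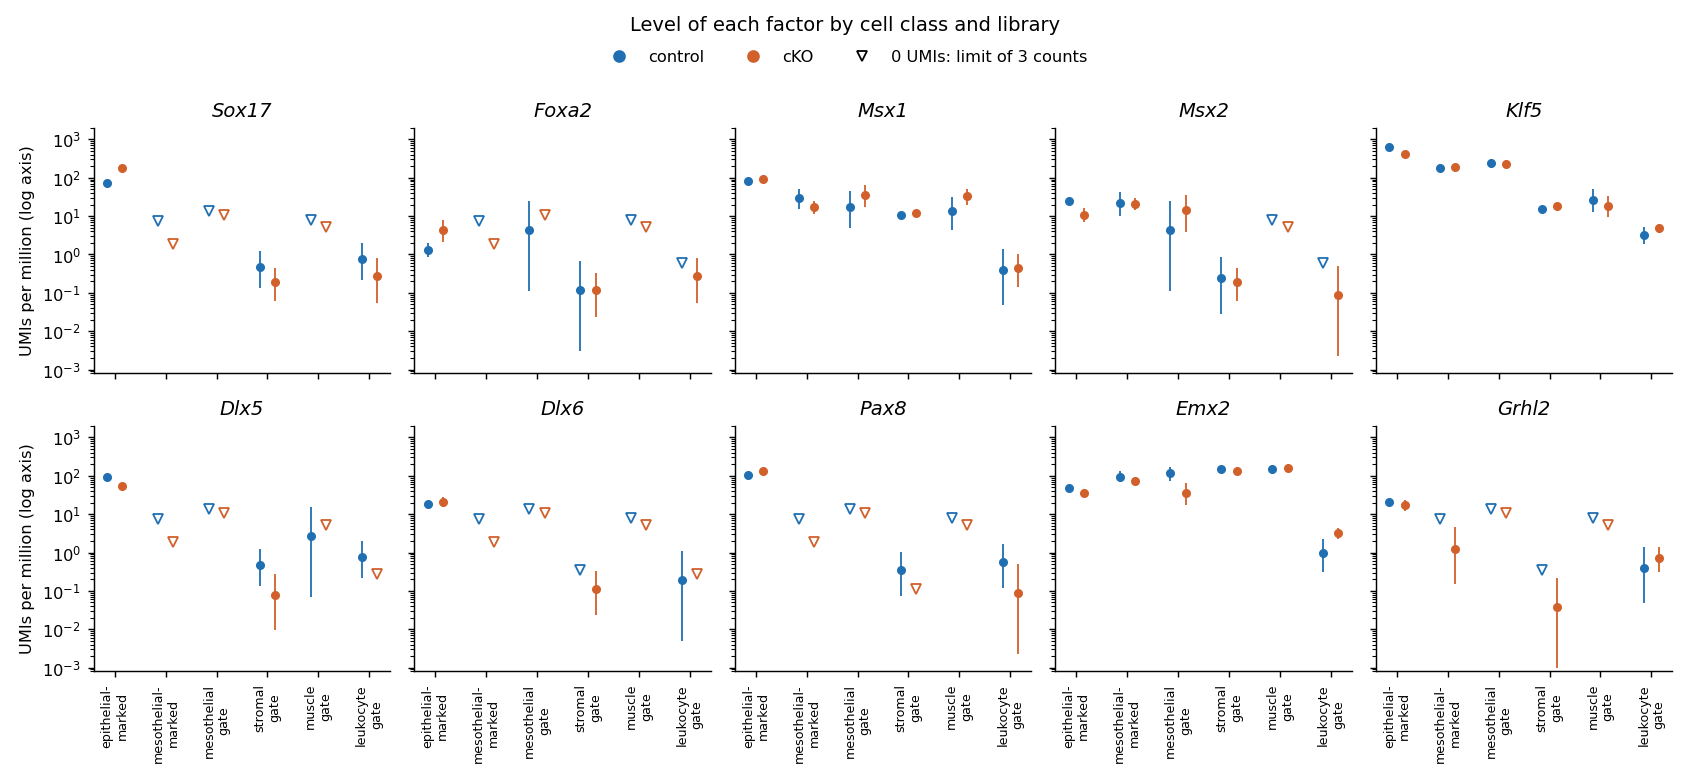
Level of each of the 10 factors in CPM (y axis, log scale) in 6 cell classes (x axis) of the control (blue) and cKO (orange) library; bars are exact Poisson 95% intervals and open triangles mark classes with 0 UMIs at the level of 3 counts. Sox17, Dlx5, Dlx6, Pax8 and Grhl2 lie high in epithelial-marked cells alone, while Klf5, Emx2, Msx1 and Msx2 are also counted in mesothelial cells.

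Detection per cell followed depth closely. In the control gate a UMI was found in 37.4% of cells for Sox17, 43.4% for Msx1, 70.7% for Klf5, 47.4% for Dlx5, 44.3% for Pax8, 41.4% for Emx2, 19.9% for Grhl2, 18.0% for Msx2, 16.1% for Dlx6 and 1.50% for Foxa2. After each cell was thinned to 1000 UMIs, Klf5 was found in 29.8% (27.0 to 32.8) of 990 control cells and 19.2% (12.8 to 27.1) of 130 cKO cells. Sox17 was then found in 7.37% of control and 2.31% of cKO cells, Msx1 in 9.39% and 3.08%, Dlx5 in 8.59% and 3.85% and Pax8 in 8.99% and 2.31%. Each of these 4 cKO shares rests on 3 to 5 cells. They are shares of the whole gate, in which 52 of 130 cKO cells were epithelial-marked. Those 52 cells held 417 of 418 cKO gate UMIs for Sox17, 208 of 236 for Msx1, 123 of 123 for Dlx5 and 311 of 312 for Pax8. In leukocytes thinned alike, Klf5 was found in 0.296% of control and 0.641% of cKO cells, and the other 9 factors in at most 0.256%. Unthinned leukocyte shares reached 1.75% and 1.97% for Klf5, at median depths of 6147 and 5367 UMIs. In epithelial-marked cells thinned to 1000 UMIs, Klf5 was found in 30.9% (27.9 to 34.0) of control and 26.9% (15.6 to 41.0) of cKO cells, intervals that overlap. Msx2, Dlx6, Grhl2 and Foxa2 had upper bounds of at most 13.2% in both libraries, too few cells to compare.

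RNA outside cells also held these transcripts. In barcodes of 1 to 100 UMIs, Klf5 was at 164.5 CPM in control and 31.1 CPM in cKO, Sox17 at 38.8 and 6.13 CPM, Msx1 at 58.6 and 18.4 CPM, and Pax8 at 36.9 and 9.19 CPM. Emx2, the factor with most UMIs in stroma, was at 54.7 CPM in control and 91.0 CPM in cKO.

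The comparison of cKO with control asks how the factors differ in epithelial cells of mice in which Prickle1 was targeted with Ltf-driven Cre. In the Epcam gate 3 of the 10 factors were at least 2-fold lower in cKO, where 11.5% of 14759 genes were, and 0 were at least 2-fold higher, where 30.7% were. The median log2 ratio of the 10 was -0.64, against 0.45 over all genes. In the epithelial-marked cells 1 factor was at least 2-fold lower, where 13.7% of 13597 genes were, and 2 were at least 2-fold higher, where 22.7% were. There the median of the 10 was -0.11, against 0.25 over all genes. With TMM scaling 7 of the 10 were at least 2-fold lower in the gate, where 20.8% of all genes were, and 0 at least 2-fold higher, where 18.2% were. Because the median over all genes lay above 0 in both fits, a ratio near 1 is low relative to the other genes. Klf5, Dlx5, Msx2 and Grhl2 were lower in cKO in both sets of cells, for Grhl2 with an epithelial-marked interval that held 1. Msx1, Dlx6, Pax8 and Emx2 lay on opposite sides of 0 in the gate and in the epithelial-marked cells.

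Sox17, needed for gland formation, and Foxa2, the gland marker, had the highest cKO-to-control ratios of the 10. In the gate Sox17 had 1290 UMIs in 373 of 998 control cells and 418 UMIs in 33 of 130 cKO cells, 70.8 and 94.2 CPM, a log2 ratio of 0.41 (0.25 to 0.57). In epithelial-marked cells it had 74.1 CPM (70.1 to 78.3) and 181 CPM (164 to 199), and the log2 ratio of cKO to control was 1.28 (1.12 to 1.45). A few cells carried this level: 1 cKO cell held 123 of 417 Sox17 UMIs, 29.5%, and the 3 top cells held 63.1%, against 4.75% and 12.5% in control. Without the top cell of each library the log2 ratio was 0.95 in epithelial-marked cells and 0.03 in the gate. With each cell given equal weight it was 0.34 and -0.93. With TMM scaling of the gate, which lowers the log2 ratio of every gene by 0.57, it was -0.16. The direction in the gate depends on these choices. The median of single cells with at least 10000 UMIs was 0.333 UMIs per 10000 in 358 control cells and 0.561 in 38 cKO cells, within quartiles of 0 to 0.894 and 0.0407 to 1.02. A further cKO cell with 174 Sox17 UMIs carried Epcam and Ptprc UMIs and lay outside the gate. Within the gate Foxa2 had 23 UMIs in 15 control cells and 10 UMIs in 5 cKO cells, all of them epithelial-marked. The gate ratio was 1.78 (0.758 to 3.90), an interval that holds 1. The epithelial-marked ratio was 3.26 (1.39 to 7.13), and 1 cell held 4 of the 10 UMIs of cKO while 3 cells held 80%.

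Msx1 and Msx2 encode closely related homeobox repressors of the uterine lining. Msx1 had 1488 UMIs in 433 control gate cells and 236 UMIs in 52 cKO gate cells, 81.7 and 53.2 CPM, a log2 ratio of -0.62 (-0.82 to -0.42). In epithelial-marked cells the levels were 84.3 and 90.1 CPM and the interval of the ratio, 0.919 to 1.24, held 1. Of the cKO epithelial-marked Msx1 UMIs, 18.8% were in 1 cell, and without the top cells the log2 ratio was -0.12. Msx2 had 435 UMIs in 180 control cells and 58 UMIs in 35 cKO cells of the gate, 23.9 and 13.1 CPM, a log2 ratio of -0.87 (-1.29 to -0.47). In epithelial-marked cells it was counted at 24.5 CPM (425 UMIs) and 10.8 CPM (25 UMIs), 2.26-fold (1.51 to 3.54) lower in cKO. In cKO more Msx2 UMIs came from mesothelial-marked cells (33) than from epithelial-marked cells (25), and in control 9 and 425 did. Among gate cells under 10000 UMIs the log2 ratio was 0.55, opposite in direction. The 14 epithelial-marked cKO cells of that depth held 0 Msx2 UMIs, so the cKO UMIs there lay in other cells of the gate.

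Klf5 and Grhl2 are linked with epithelial differentiation. Klf5 had 11068 UMIs in 706 control gate cells and 1316 UMIs in 93 cKO gate cells, 608 and 297 CPM, 2.05-fold (1.94 to 2.17) lower in cKO. In epithelial-marked cells the levels were 632 CPM (621 to 644) and 426 CPM (399.9 to 454), 1.48-fold (1.39 to 1.59) lower. Among epithelial-marked cells with at least 10000 UMIs the median was 5.34 UMIs per 10000 (quartiles 2.60 to 8.69) in control and 3.56 (2.12 to 5.42) in cKO, so the single-cell ranges overlapped widely. With epithelial-marked cells weighted equally the log2 ratio was -0.11, against -0.57 for the sums. Klf5 was higher in deeper cells within control: it was at 691 CPM in epithelial-marked cells with at least 10000 UMIs and at 291.5 CPM in those below. Grhl2 had 364 UMIs in 199 control gate cells and 41 UMIs in 21 cKO gate cells, 19.99 and 9.24 CPM, 2.16-fold (1.56 to 3.07) lower in cKO. In epithelial-marked cells, at 20.9 and 16.9 CPM, the interval of the ratio, 0.564 to 1.12, held 1.

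Dlx5 and Dlx6 are a neighbouring pair of distal-less homeobox genes. Dlx5 had 1599 UMIs in 473 control gate cells and 123 UMIs in 28 cKO gate cells, 87.8 and 27.7 CPM, 3.17-fold (2.64 to 3.84) lower in cKO and the lowest ratio among the 10. All 123 cKO UMIs lay in epithelial-marked cells, where the levels were 91.7 CPM (87.3 to 96.3) and 53.3 CPM (44.3 to 63.5), 1.72-fold (1.43 to 2.09) lower. A UMI was found in 74.9% of control and 63.2% of cKO epithelial-marked cells with at least 10000 UMIs, whose medians were 0.585 and 0.315 UMIs per 10000. Dlx6 had 316 UMIs in 161 control gate cells and 49 UMIs in 18 cKO gate cells, 17.4 and 11.04 CPM, a log2 ratio of -0.65 (-1.12 to -0.21). In epithelial-marked cells it was at 17.9 and 21.2 CPM, with a ratio interval of 0.859 to 1.61 that held 1. The antisense gene Dlx6os1, which spans Dlx6, had 256 UMIs in control and 17 in cKO epithelial-marked cells, 14.8 and 7.36 CPM, 2.01-fold (1.23 to 3.50) lower, and 1 cKO cell held 47.1% of the 17. As stated above, whether reads of Dlx6 and Dlx6os1 were kept apart was not checked.

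Pax8 and Emx2 are the Mullerian duct factors. Pax8 had 1833 UMIs in 442 control gate cells and 312 UMIs in 38 cKO gate cells, 101 and 70.3 CPM, a log2 ratio of -0.52 (-0.70 to -0.34). All but 1 of the cKO UMIs were in epithelial-marked cells, where the levels were 105 CPM (101 to 110) and 135 CPM (120.1 to 150.5), giving a log2 ratio of 0.35 (0.17 to 0.53) that lies near the 0.25 of all genes. Among epithelial-marked cells with at least 10000 UMIs, 79.3% in control and 89.5% in cKO held a Pax8 UMI. Emx2 had 938 UMIs in 413 control gate cells and 249 UMIs in 74 cKO gate cells, 51.5 and 56.1 CPM, with a ratio interval of 0.944 to 1.25 that held 1. In epithelial-marked cells it was at 49.0 and 35.5 CPM, 1.38-fold (1.10 to 1.75) lower. Emx2 in stromal cells was at 152 CPM in control and 134 CPM in cKO, 1.14-fold (1.06 to 1.21) lower, and in mesothelial cells at 115 CPM (26 UMIs) and 35.4 CPM (10 UMIs), 3.25-fold (1.52 to 7.56) lower. In the mesothelial-marked cells of the gate it was at 95.8 CPM (68.1 to 131) and 73.5 CPM (60.7 to 88.1), intervals that overlap.

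**Figure D3:**
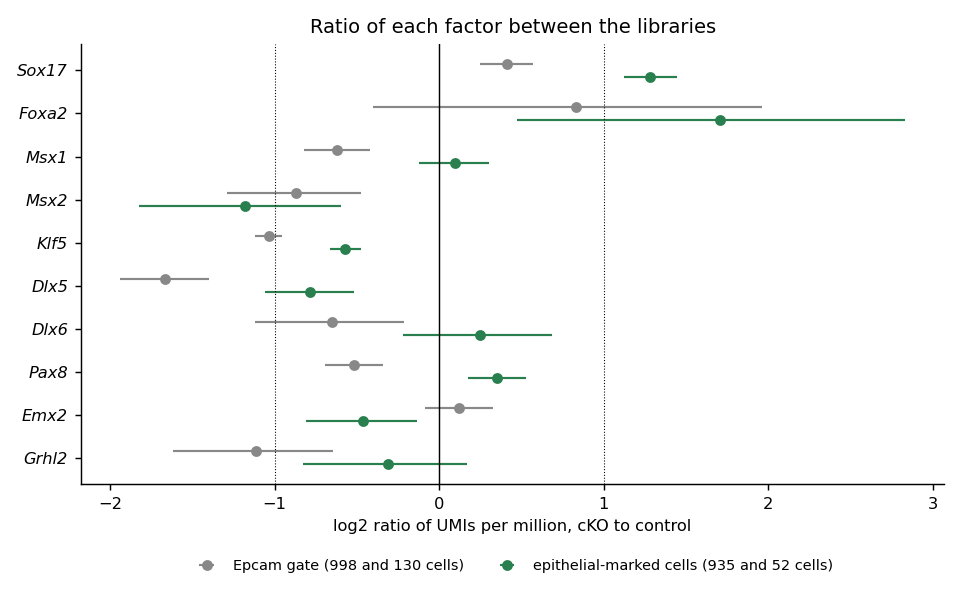
Log2 ratio of CPM in cKO to control (x axis) for each of the 10 factors (y axis), in the Epcam gate (grey, 998 control and 130 cKO cells) and in its epithelial-marked cells (green, 935 and 52); bars are exact 95% counting intervals and dotted lines mark 2-fold. Dlx5 has the lowest gate ratio, -1.66, and lies at -0.78 in epithelial-marked cells, while Msx1, Dlx6 and Pax8 lie below 0 in the gate and above 0 in epithelial-marked cells, and Emx2 the reverse.

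**Figure D4:**
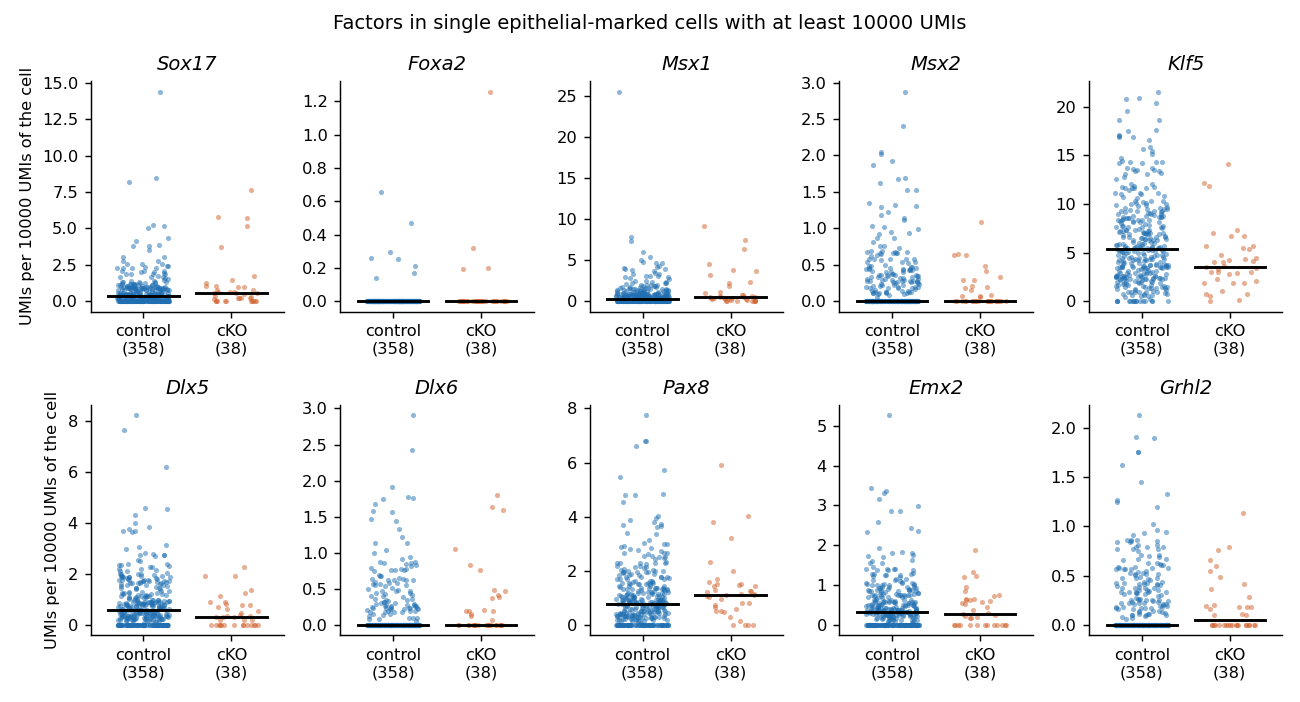
Level in single epithelial-marked cells with at least 10000 UMIs (y axis, UMIs of the factor per 10000 UMIs of the cell) in control (358 cells) and cKO (38 cells); each point is a cell, with a random horizontal offset, and the bar is the median. The control cells spread over the range of the cKO cells for Klf5, Dlx5 and Pax8, and the highest Sox17 values of cKO sit in a few cells.

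Single epithelial cells usually held several factors together. Among epithelial-marked cells with at least 10000 UMIs, the median number of the 10 factors with a UMI was 6 in both libraries, with a range of 0 to 9 in 358 control cells (median 32220.5 UMIs) and 3 to 10 in 38 cKO cells (median 41721 UMIs). At least 8 factors were found in 66 control and 13 cKO cells. Mesothelial-marked cells with at least 10000 UMIs had a median of 2.5 factors in control and 3 in cKO, at median depths of 24043 and 31325.5 UMIs. Stromal cells had a median of 1 in both, at lower median depths of 17952 and 18738 UMIs. The part of depth in these differences was not tested.

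At equal depth, in control epithelial-marked cells, Msx1 was found with Dlx5, Dlx6 and Sox17, and Dlx5 with Dlx6, more often than independence would give. Klf5 was found with Msx1, Dlx5, Sox17 and Grhl2 somewhat less often. Epithelial-marked cells were thinned to 5000 UMIs (549 control cells) and the cells that held both members of a pair were compared with the number expected if the 2 were independent. Of 33 pairs with an expected number of at least 5, 22 were together more often than expected. Dlx5 and Dlx6 were together in 29 cells where 15.7 were expected. Msx1 was found with Dlx6 in 24 cells (14.2 expected), with Sox17 in 55 (38.5 expected) and with Dlx5 in 67 (57.6 expected). Klf5, found in 417 cells, was with Msx1 in 113 (128 expected), with Dlx5 in 132 (142 expected), with Sox17 in 85 (94.9 expected) and with Grhl2 in 28 (36.5 expected). In cKO, with 42 cells, 7 pairs had an expected number of at least 5, of which 2 were together more often than expected, and Klf5 was with Dlx5 in 5 cells where 8.38 were expected. Unthinned, 39 of the 45 control pairs were together more often than expected. How often pairs of other genes exceed expectation in these cells was not computed, so these counts cannot be called particular to the factors.

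Pearson correlations of the log levels were taken across the same cells without thinning. In control r was 0.30 for Dlx5 with Dlx6, 0.29 for Msx1 with Dlx5 and 0.24 for Sox17 with Dlx5, and -0.30 for Klf5 with Msx1 and -0.29 for Klf5 with Dlx5. In 42 cKO cells r was 0.13 for Dlx5 with Dlx6, 0.25 for Msx1 with Dlx5, -0.36 for Klf5 with Msx1 and -0.37 for Klf5 with Dlx5. Sox17 with Msx1 had 0.20 in control and -0.06 in cKO, and Sox17 with Dlx6 had 0.22 and 0.08. Over the whole cKO gate (109 cells) the sign of Klf5 was opposite, at 0.18 with Msx1, 0.13 with Dlx5 and 0.27 with Sox17, while over the control gate (586 cells) it was -0.23, -0.20 and -0.11. At equal depth Klf5 was found with Msx1 in 14 cells of the cKO gate, where 10.4 were expected. Dlx6 with Grhl2 had an r of 0.22 in control and 0.67 in cKO, where the genes were found in 18 and 19 cells. These cells share a library. Across the 549 control cells Klf5 had an r of 0.49 with the log of the cell's UMIs and -0.27 with its mitochondrial percent, and Msx1 had -0.16 and 0.39. With the log of UMIs Sox17 had 0.04, Dlx5 -0.06 and Dlx6 -0.01. The part of depth and mitochondrial content in these correlations was not tested.

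**Figure D5:**
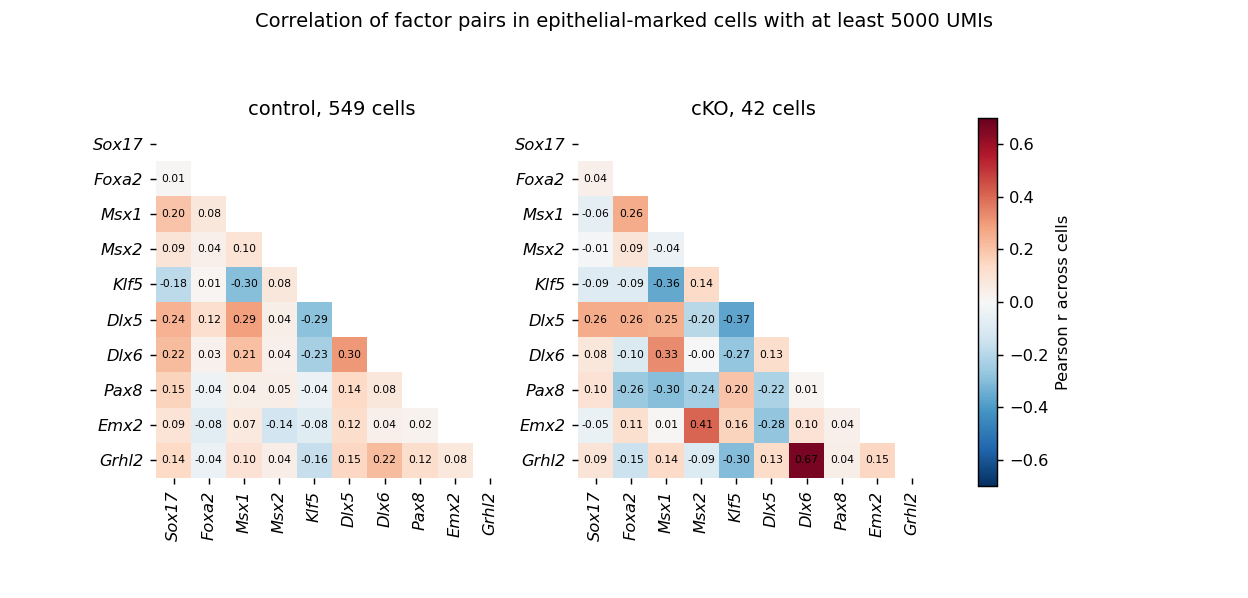
Pearson r of each pair of factors across epithelial-marked cells with at least 5000 UMIs, on log(1 + UMIs per 10000), for 549 control cells (left) and 42 cKO cells (right); red is positive and blue negative. In these cells Klf5 is negative with Msx1 and Dlx5 in both libraries (-0.30 and -0.29 in control, -0.36 and -0.37 in cKO), unlike in the whole cKO gate.

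The genes whose levels were most like each factor were sought over 586 control Epcam-gate cells with at least 5000 UMIs and 11619 genes. Klf5 had the closest partners: Actg1, a cytoplasmic actin (r = 0.62), Cdh1 (0.62) and the chromatin remodelling gene Baz1a (0.61). Sox17 was most like the iron exporter gene Slc40a1 (0.41), Clca1 (0.36) and Cxcl17 (0.33). Dlx6 was most like the homeobox gene Meis1 (0.36), Clca1 (0.34) and Slc40a1 (0.34). Msx1 was most like the zinc finger gene Mecom (0.39) and the mitochondrial genes mt-Atp8 and mt-Nd4 (both 0.38). Dlx5 was most like AC149090.1 (0.36), Mecom (0.32) and Dgat2 (0.32), and Pax8 most like Lcn2 (0.30), Wfdc2 (0.28) and Fxyd3 (0.26). The best partners of Msx2, Emx2 and Grhl2 had an r of at most 0.25, which is weak in counts this sparse. Foxa2 had too few UMIs.

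The genes these factors are known to act with were described from lists made for this tissue. The counts below are to be read against all genes: in the gate 30.7% were at least 2-fold higher and 11.5% at least 2-fold lower (median log2 ratio 0.45), and in epithelial-marked cells 22.7% and 13.7% (median 0.25). Of 23 other epithelial and Mullerian duct factors with at least 10 UMIs, 4 were at least 2-fold higher and 8 at least 2-fold lower in the cKO gate (median log2 ratio -0.32). In epithelial-marked cells 2 were higher and 6 lower (median -0.24). The ETS factor Elf3 was lower in both, at 656 CPM in control and 137 CPM in cKO in the gate and at 687 and 260.2 CPM in epithelial-marked cells, 2.64-fold (2.43 to 2.87) lower. Klf4, a relative of Klf5, had 1546 and 747 CPM in epithelial-marked cells, 2.07-fold (1.97 to 2.17) lower. Klf6, of the same family, differed little there (1605 and 1509 CPM). Cebpb was 1.96-fold (1.89 to 2.02) higher in the cKO gate but 1.34-fold (1.25 to 1.43) lower in epithelial-marked cells. Of the stromal and mesothelial factors, 13 of 13 were at least 2-fold higher in the cKO gate, such as Twist1 (7.30 and 96.0 CPM) and Wt1 (8.95 and 106 CPM). In epithelial-marked cells 1 of 8 was higher, the repressor gene Zeb2 (2.71 and 6.06 CPM), with 85.7% of its 14 UMIs of cKO in 1 cell. The 3 lower ones, Twist1, Tcf21 and Osr2, had 1, 1 and 4 UMIs in cKO and intervals that held 1.

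Of 11 genes tied to Grhl2, which encode junction proteins (Cdh1, Cldn4, Cldn7), splicing factors (Esrp1, Esrp2), a protease and inhibitors (St14, Spint1, Spint2) and others, 5 were at least 2-fold lower in the cKO gate (median -0.90) and 0 of 11 in epithelial-marked cells (median -0.03), although 3 of them, Cdh1, Cldn4 and Cldn7, helped to mark those cells. In epithelial-marked cells the claudin gene Cldn4 had 1595 and 820 CPM, 1.95-fold (1.86 to 2.04) lower. Cldn7 had 1287 and 1586 CPM there, and the protease inhibitor gene Spint2 had 378 and 514 CPM. Among gland genes linked to Foxa2, Lif, the cytokine needed for implantation, was at 102 CPM in control and 37.7 CPM in cKO epithelial-marked cells, 2.70-fold (2.18 to 3.39) lower, with a UMI in 363 of 935 control and 18 of 52 cKO cells and 26.4% of the cKO UMIs in 1 cell. Sprr2f, a small proline-rich protein gene, had 5048 and 2053 CPM there, 2.46-fold (2.39 to 2.53) lower. A Sprr2f UMI was found in 806 of the 935 control cells and a Foxa2 UMI in 15, so Sprr2f is not read as a gland marker here. Of 7 genes of this Foxa2-linked list 3 were at least 2-fold higher and 2 lower in epithelial-marked cells. The higher ones were Aldh1a1, a retinaldehyde dehydrogenase gene (2.25 and 32.9 CPM, ratio 14.6, 9.82 to 22.1), the calbindin gene Calb1 (9.40 and 73.2 CPM, ratio 7.78, 6.24 to 9.71) and Prss29, whose 53 UMIs of cKO lay in a single cell. Among lumenal genes 2 of 11 were at least 2-fold higher and 1 lower in epithelial-marked cells, and 1 higher and 5 lower in the gate. The gene higher in the gate was Msln (8.90 and 110 CPM), which also served as a mesothelial marker here. The 2 higher in epithelial-marked cells were Wnt7a (28.4 and 87.5 CPM) and Gsta4 (24.1 and 67.1 CPM), and the lower one was Lpar3 (26.2 and 10.4 CPM). In cKO 1 cell held 37.4% of the 155 Gsta4 UMIs there, and 1 cell held 13.9% of the 202 Wnt7a UMIs. Krt7, a simple-epithelium keratin, had 1570 and 1215 CPM in epithelial-marked cells, and the claudin gene Cldn3 had 724 and 404 CPM, 1.79-fold (1.68 to 1.92) lower.

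Of 12 signalling genes linked to Msx genes and Sox17, 9 were at least 2-fold higher in the cKO gate (30.7% of all genes) and 5 in epithelial-marked cells (22.7%), and 0 were at least 2-fold lower in either. Wnt4, Bmp2, Bmp4, Areg and Axin2 had ratios below 1 in epithelial-marked cells. Wnt5a had 232 UMIs in control and 89 in cKO epithelial-marked cells, 13.4 and 38.5 CPM, a ratio of 2.88 (2.23 to 3.69). The growth factor gene Fgf9 had 7.84 and 16.9 CPM, a ratio of 2.15 (1.47 to 3.09), and 1 cKO cell held 41.0% of its UMIs. Wnt7b, an epithelial Wnt ligand, had 108 and 148 CPM, a ratio of 1.37 (1.22 to 1.54). Wnt4 had 57.9 and 29.0 CPM, 1.99-fold (1.56 to 2.59) lower, while in the gate it had 61.2 and 66.0 CPM. Ihh, the hedgehog ligand of the uterine epithelium, had 2 UMIs in control and 81 in cKO epithelial-marked cells, a ratio of 304 (81.5 to 2553). The 81 UMIs lay in 7 cells, and 1 cell held 58.0% of them. Bmp2 had 6.15 CPM in the control gate and 83.6 CPM in the cKO gate, 13.6-fold higher (10.98 to 16.9). Epithelial-marked cells held 25 of its 112 gate UMIs in control and 2 of 371 in cKO. The Bmp2 UMIs of the cKO gate thus lay almost wholly in other cells of the gate. How they were divided among mesothelial-marked, stromal-marked and unmarked cells was not tested.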

How the data were processed

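Single-cell RNA-seq (10x 3′ libraries, per the labels) was analysed from 2 libraries, each a pool of 3 mice. The deposited matrices hold raw UMI counts per gene and barcode, made by the authors with Cell Ranger 6.1.1 on mm10 per the submitters' processing notes; per the file headers the format is that of Cell Ranger 4. The members, gene lists and tests were chosen with earlier results of these data known. Barcodes with at least 500 genes and at most 20% mitochondrial UMIs were kept, which left out 283 control and 46 cKO barcodes. Cells were gated by marker genes, and counts were summed per class and library and divided by the class's total UMIs on the CPM scale. Exact Poisson, conditional binomial and Clopper-Pearson 95% intervals describe counting error alone. Where a class had 0 UMIs, it was given the floor of 3 counts over the class. Genes with at least 10 UMIs over both groups compared were counted as higher or lower at 2-fold. Shares were compared after 1 random thinning to 1000 UMIs, and pairs after thinning to 5000. A doublet score of at least 0.25 marked 42 control and 63 cKO cells. None were removed, except in an alternative, because the automatic threshold marked 2 and 0 cells. All 10 members were named in every class. From each other list the 4 genes with most UMIs whose ratio interval excluded 1 were eligible, plus genes a sentence needed. For the most alike genes, members with at least 50 UMIs were paired with genes found in at least 20 cells. The scripts were tested on simulated data. Tools were Python 3.11.15, numpy 2.4.6, scipy 1.17.1, pandas 2.3.3, scanpy 1.11.5 and edgeR 4.0.16, the last only for TMM factors as an alternative. Of 32285 gene IDs, 32158 were found in GENCODE M21. Promoter sequences were matched for 5 members, 4 of them with 1 start site.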

Additional observations from a re-analysis of the deposited data

How the results depend on the processing

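No paired analysis was possible because each group has 1 library. Klf5, Dlx5 and Grhl2 were lower in cKO in all 20 settings computed, of the gate or of epithelial-marked cells (log2 ratios of -1.60 to -0.11, -2.23 to -0.53 and -1.80 to -0.25). Settings with epithelial-marked cells or required Cdh1 were chosen after seeing the data. Of 199 alternative values for single factors between cKO and control, 107 moved by less than the counting interval, 71 moved further and 21 changed direction. The 21 leave out Emx2 and Foxa2, whose gate interval held 1 and whose log2 ratio was below 0 in 9 of 20 and 1 of 19 settings. For epithelial against stromal cells these were 203, 46 and 0 of 249. Of 40 alternative shares of cells with a UMI, without thinning or thinned to 5000 UMIs, 4 stayed within the interval and 36 moved beyond it. The number of factors at least 2-fold higher in cKO, 0 as reported, was 1 with at least 1000 genes, at least 2 Epcam UMIs or at least 10000 UMIs per cell, and 2 without Pdgfra, Msln or high Actg2. It was 2 in epithelial-marked cells, with Cdh1 required and in epithelial-marked cells of at least 10000 UMIs, and 1 with those cells averaged or their top cell left out. The number at least 2-fold lower, 3 as reported, was 7 with TMM factors, which shift the ratios by 0.57 (20.8% of all genes), and 1 with at least 2 Epcam UMIs, with Krt8 or Krt18 required, without Pdgfra, Msln or high Actg2, with Cdh1 required, and in epithelial-marked cells as they stand, of at least 10000 UMIs, averaged or without the top cell. Over the settings that sum whole cells, other than TMM and cells under 10000 UMIs, 22.7% to 31.6% of all genes were at least 2-fold higher and 10.4% to 13.7% lower. The number at least 2-fold lower was 4 with gate cells averaged, thinned or under 10000 UMIs, where Msx1 was at -1.79 and Pax8 at -2.08 in the cells under 10000 UMIs. In the cells under 10000 UMIs, 26.7% of 10685 genes were at least 2-fold lower and 27.4% higher. With cells averaged, thinned or a top cell left out no share of all genes was computed. The median log2 ratio of -0.64 was -0.0032 in epithelial-marked cells of at least 10000 UMIs and -0.0084 with them averaged. Sox17 changed direction with cells averaged (-0.93), thinned (-1.07), under 10000 UMIs (-1.85) and with TMM factors (-0.16), and Msx2 under 10000 UMIs (0.55). In epithelial-marked cells Msx1 was at 0.0949, at 0.25 with at least 10000 UMIs and at 0.24 averaged. Dlx6 was at 0.25, 0.33 and 0.0935 there, at 0.0677 without the top cell, at 0.0797 with Cdh1 required, at 0.0924 without Pdgfra, Msln or high Actg2 and at 0.12 thinned. Pax8 was at 0.35, 0.35 and 0.12, at 0.36 without the top cell, at 0.17 with Cdh1 and at 0.22 without Pdgfra, Msln or high Actg2. Factors at least 2-fold higher in epithelial than stromal cells numbered 5 in cKO after thinning to 1000 UMIs, where pairs of values at or under 3 counts were left out. The share of all genes was not computed for that comparison after thinning. For the other changes the cause was not tested. The 52 epithelial-marked cKO cells limit the precision of the epithelial-marked cKO values.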
